A study of Caenorhabditis elegans with 12 samples.

Results

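The H3K9me2 peaks of the *wdr-5* experiment are described here by their place on the chromosomes, their spacing and the way they gather into domains. All 10457 peaks of the experiment's deposited list were used, out of 16340 in the lists of both experiments of the study. The other 5883 peaks belong to the *jhdm-1* experiment. H3K9me2 ChIP-seq, in which DNA bound to dimethylated histone H3 lysine 9 is pulled down by an antibody and sequenced, was performed on whole, mixed-stage *C. elegans*, grown on OP50 bacteria. There were 6 ChIP groups, wild type (N2) and *wdr-5 (ok1417)* mutants, each sampled as an early-gen, a mid-gen and a late-gen population, with input DNA as the control. WDR-5 is a component of the COMPASS complex, which methylates histone H3 at lysine 4. Populations were counted from founders that had been maintained as heterozygotes, or recovered from starvation or a thaw. The mutant is a single allele, which itself lies on Chromosome III, and whole animals mix germline and somatic nuclei of all stages.

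The list is a union. A peak entered it when 2 or more replicates of a single group shared it, and peaks of all 6 groups were then combined. Each entry has a chromosome, a start and an end on WS220/ce10, with no score, count, group or library depth. No genotype or generation could be set against another, the depth of the libraries is unknown, and no value below has a replicate error. Intervals given with shares are 95% Wilson intervals, and those given with medians are 95% order-statistic intervals. Both cover counting error over peaks only. Neighbouring peaks share libraries and sequence and are not replicates of animals.

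H3K9me2 is a repressive mark of heterochromatin, and in *C. elegans* most of it is placed by the methyltransferase MET-2. The chromosomes of this worm are holocentric, so heterochromatin is not gathered around one centromere. The arms of the autosomes hold many repeats and transposon remnants and recombine often, whereas the centres are dense in broadly expressed genes. The arms also lie against the nuclear lamina, where H3K9 methylation helps to anchor them. The X chromosome is under dosage compensation in hermaphrodites and is poor in genes expressed in the germline.

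Peaks lay on the arms of all 5 autosomes, and the centres held few. Every chromosome was cut into 3 equal parts, and the outer parts are called the arms. The autosome arms held 9254 peaks, or 168 per Mb, and these covered 13.6% of the arms. The autosome centres held 679 peaks, or 24.7 per Mb, and these covered 1.33% of the centres. The arms were thus 6.81 times as dense in peaks as the centres and 10.2 times as dense in covered bases. X held 524 peaks, or 29.6 per Mb over its whole length, close to the density of the autosome centres.

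**Figure D1:**
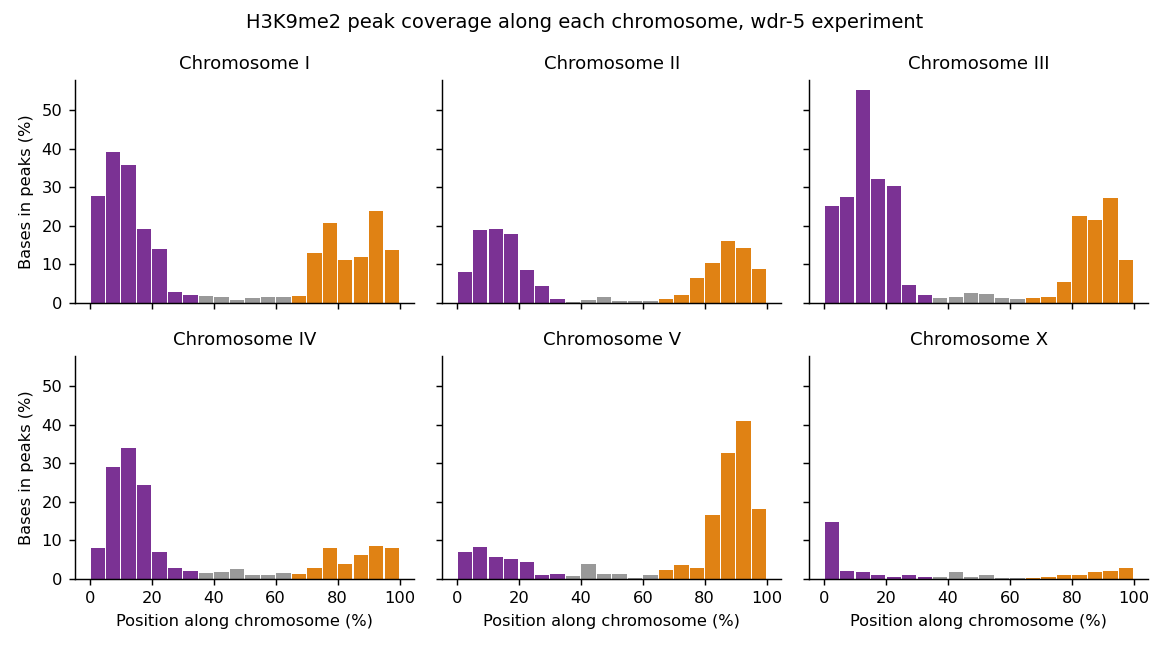
The percent of bases inside peaks (y axis) in 20 bins of equal length along each chromosome (x axis, percent of its length), coloured by the bin's middle as left arm (purple), centre (grey) or right arm (orange). Coverage is high on the autosome arms, low in all centres and lopsided on Chromosomes III, IV and V, and on X it is highest at the left end.

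The contrast between arms and centre differed in size among the chromosomes. On Chromosome II the arms were 10.6 times as dense in peaks as the centre, and on Chromosome I they were 8.84 times as dense. The ratio was 6.50 on Chromosome III, 5.90 on Chromosome V and 5.0 on Chromosome IV. On Chromosome III, 22.5% of the 142 centre peaks came from 1 group of very short peaks, described at the end. Without it 110 centre peaks remain, so the ratio of Chromosome III would be higher, but that ratio was not computed. X had the lowest ratio, 3.66. The high ratio of Chromosome II went with the emptiest autosome centre, with 68 peaks at 13.4 per Mb, and not with the densest arms. The other autosome centres held between 24.3 and 30.9 peaks per Mb, and the X centre held 10.7. The highest of these, 30.9, was that of Chromosome III with its group of short peaks included.

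The left and right arms of a chromosome were often unequal. The left arm of Chromosome IV held 1077 peaks and its right arm 504, so that 68.1% (65.8 to 70.4%) of its arm peaks were on the left. Chromosome V was lopsided the other way, with 534 peaks on the left arm and 1695 on the right, and 24.0% (22.2 to 25.8%) of its arm peaks on the left. The left shares of Chromosomes I, II and III were 55.0, 56.1 and 57.3%, nearer to balance by number of peaks. By covered bases the left share was 59.3% on Chromosome I, 57.4% on Chromosome II and 66.1% on Chromosome III, where the left arm had both more and longer peaks. Summed over the autosomes the peak numbers cancelled, at 50.4% (49.4 to 51.4%) on the left, and 55.3% of the bases were on the left. The right arm of Chromosome V, with 243 peaks per Mb, and the left arms of Chromosomes I and III, with 236 and 230 per Mb, were the densest parts of the genome in peaks. The left arm of Chromosome V had 76.6 peaks per Mb, the lowest density of any autosome arm. Chromosome V carries many of the worm's chemoreceptor gene families, but no peak was assigned to a gene here, since the gene table at hand is on another genome build.

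**Figure D2:**
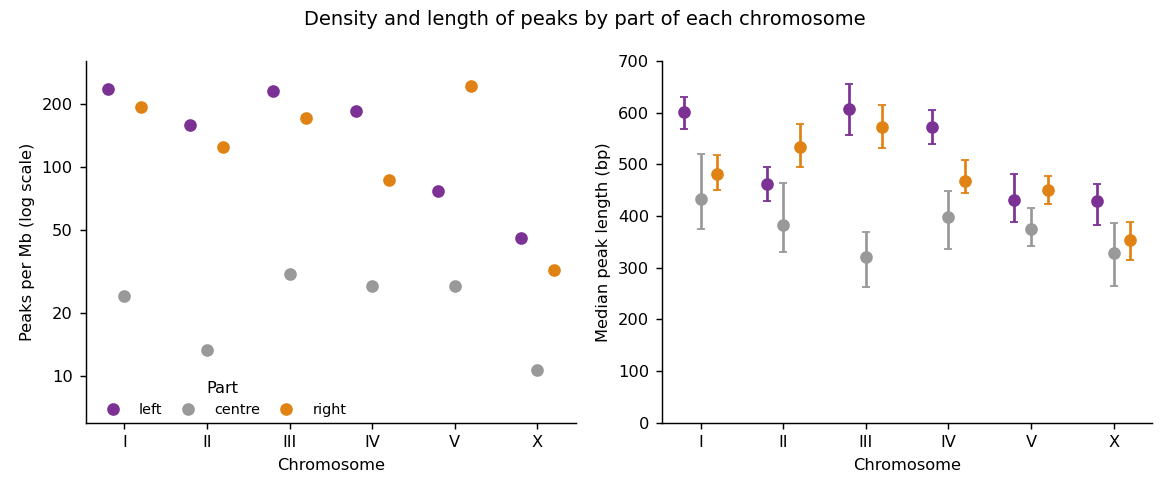
Peaks per Mb on a log axis (left panel) and median peak length in bp with its 95% interval (right panel) for the left arm, centre and right arm of each chromosome. Every centre lies below both arms of its chromosome in density, and in median length as well, although several of the length intervals overlap, while X lies below the autosomes in density part for part.

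By covered bases, the left arm of Chromosome III stood first. Its 1057 peaks covered 26.4% of it, against 20.9% of the left arm of Chromosome I and 17.5% of the right arm of Chromosome V. Chromosome III therefore had the highest coverage of any chromosome, at 13.9%, although Chromosome I had more peaks per Mb (151 against 144). The median peak on the left arm of Chromosome III was 607 bp long, and on the right arm of Chromosome V it was 450 bp. The 2 arms were thus near in peak density, at 243 per Mb on the right arm of Chromosome V and 230 on the left arm of Chromosome III. The peaks of the latter were longer at the median.

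Arm peaks were longer than centre peaks on each of the 6 chromosomes. The median length was 515.5 bp (504 to 527 bp) on the autosome arms and 376 bp (357 to 404 bp) in the autosome centres, a ratio of 1.37. The ratio ran from 1.18 on Chromosome V to 1.84 on Chromosome III. In the centre of Chromosome III the median was 321 bp with its group of very short peaks and 380 bp without it. The median on X was 376.5 bp over the whole chromosome, again close to that of the autosome centres. Of the 98 peaks of at least 5 kb, which made up 0.94% of all peaks and 9.17% of all covered bases, 98.0% were on arms. For peaks of any length the share on arms was 93.2% on the autosomes and 88.0% on X. The left arm of Chromosome III alone held 39 of the peaks of at least 5 kb, the right arm of Chromosome V 15 and the left arm of Chromosome I 10.

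The densest H3K9me2 was not at the very tips of the autosomes. In the outermost 1 Mb the 10 autosome ends held a median of 173.5 peaks, in the next 1 Mb 287.5 and in the following 3 steps of 1 Mb 223.5, 144.5 and 53.5. The outermost 1 Mb was the densest of these 5 steps at 0 of the 10 ends. The second was the densest at 7 ends and the third at 2. The remaining end, the right end of Chromosome I, peaked in the fourth step with 293 peaks, after 197, 244 and 177 in the outer 3 steps. Peak density on the autosomes thus rose from the tip, was highest within the outer arm, and fell toward the centre.

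The fall toward the centre was steep on several chromosomes. When each chromosome was cut into 10 equal bins, Chromosome II went from 168 peaks in the third bin to 18 in the fourth, and Chromosome III from 275 to 35. On the right side Chromosome I went from 46 peaks in the seventh bin to 330 in the eighth. Chromosome V stayed low through its eighth bin, with 129 peaks, and then held 835 peaks in the ninth and 702 in the tenth. The ninth bin alone held 34.5% of the peaks of Chromosome V, and the edge of the peak-rich region was there nearer to the chromosome end than the boundary of the equal parts.

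On X the outermost 1 Mb was the densest of the 5 steps at both ends, clearly so on the left and by a single peak on the right. The left end held 154 peaks in the first 1 Mb, then 53, 21, 15 and 11 in the next steps. The right end held 53, 52, 33, 30 and 11. The first 1 Mb on the left thus held 29.4% (25.7 to 33.4%) of the X peaks and 42.6% of their bases, and 144 of its 154 peaks were within the first 500 kb. Peaks covered 13.1% of this first 1 Mb, near the mean of the autosome arms, and 1.06% of the rest of X. The median peak was 490 bp long there and 345.5 bp on the rest of X. In the *jhdm-1* list 75 of 358 X peaks, or 20.9%, were in the same first 1 Mb. The difference between the lists was not tested.

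Beyond that end X held 22.1 peaks per Mb, with a higher density toward its right end. With the left end included, the autosome arms had 4.31 times as many peaks per Mb as the X arms. The autosome centres had 2.31 times as many as the X centre. By covered bases these ratios were 5.94 and 2.08. The lower level of X was thus larger on the arms than in the centre. X also held the longest stretch without a peak, 662 kb from 9627397 to 10289655, which lies 54.4 to 58.1% of the way along the chromosome. The longest X peak ran over 10164 bp from 7351291 to 7361454, in the middle part and with no neighbour within 1 kb. A single peak of the *jhdm-1* list covered it whole.

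The spacing of peaks was uneven at every scale examined. The 10451 gaps between neighbouring peaks had a median of 1488 bp and a mean of 8801 bp, 5.91 times as long. Gaps of at most 1 kb made up 42.4% of all gaps. At the other end, the 428 gaps of at least 50 kb made up 4.10% of the gaps and 49.9% of the total gap length. Of the 164 gaps of at least 100 kb, 107 ended at a peak in the centre of a chromosome and 50 were on X, with some counted in both. These 428 deserts thus held about as much peak-free sequence as all other gaps together.

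Gaps differed between arms and centres more than lengths did. The median gap was 1334 bp on the autosome arms and 15659 bp in the autosome centres. It was shortest on the right arm of Chromosome V, at 829.5 bp, and on the left arm of Chromosome III, at 832 bp. The centres of Chromosomes I and II had median gaps of 22746 and 29807 bp, and the X centre 44857 bp. The centre of Chromosome V, at 4955.5 bp, was an exception that came near to the left arm of the same chromosome, at 3774 bp, in spite of the lower density of the centre. Of its 189 peaks, groups of 14, 14 and 19 lay within 0.426 Mb, as described below.

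**Figure D3:**
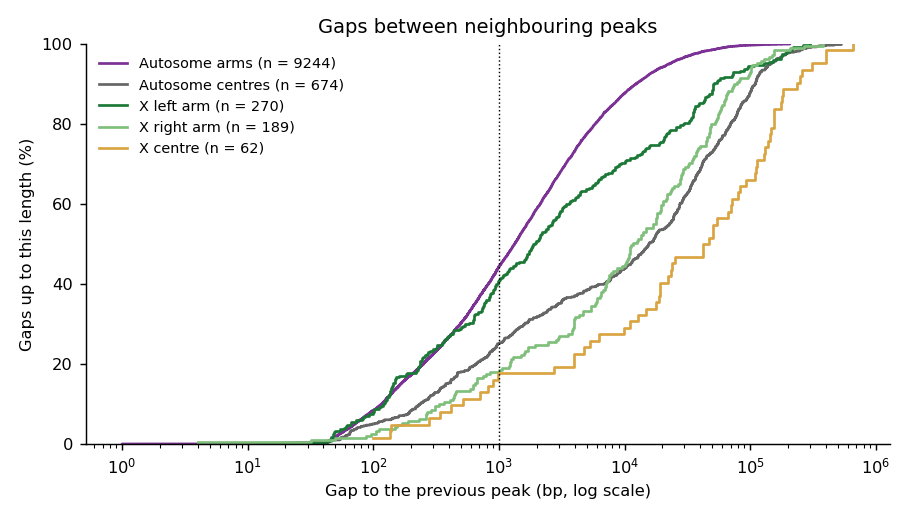
Cumulative percent of gaps (y axis) up to a given length in bp (x axis, log scale) for neighbouring peaks within the autosome arms, the autosome centres, and the left arm, right arm and centre of X, with the number of gaps in the legend and a dotted line at 1 kb. The X left arm follows the autosome arms up to about 1 kb and then falls away from them, while the X right arm follows the autosome centres at long gaps.

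The widest stretch with no peak lay in the centre of Chromosomes II to V, and on Chromosome I it lay on the left arm. It measured 533 kb on Chromosome II (7923938 to 8456608), 353 kb on Chromosome V (7259930 to 7612452), 261 kb on Chromosome IV (10724004 to 10985364) and 259 kb on Chromosome III (4896772 to 5156173). These stretches were not free of H3K9me2 calls in the other experiment. The *jhdm-1* list had 9 peaks in that of Chromosome III, 4 each in those of Chromosomes IV and V and 1 in that of Chromosome II. They covered at most 3.34% of any of the stretches. A stretch without a peak is one where no peak met the replicate rule, and the depth behind it is unknown.

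Short gaps had a lower edge of their own. Of all gaps, 836 were shorter than 100 bp, but only 36 were shorter than 25 bp, and the shortest was 1 bp. No peak was shorter than 46 bp, a length that 21 peaks shared. How far the peak calling and the union of the 6 groups set these edges was not tested.

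Peaks were next joined into domains wherever the gap between them was at most 1 kb. This gave 6031 domains. Of these, 3958 were single peaks and 2073 had 2 or more peaks, called clustered here. The clustered domains held 6499 peaks, or 62.1% (61.2 to 63.1%) of the list, and 68.6% of its bases. A clustered domain had a median extent of 2371 bp (quartiles 1405 and 4080 bp), of which a median of 75.6% was inside peaks. Most H3K9me2 peaks thus had a close neighbour, while most domains were single peaks, and the median extent over all domains was 729 bp.

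Large domains were few. The 302 domains of 5 or more peaks held 2081 peaks, or 19.9% (19.1 to 20.7%), and 24.8% of the bases. This share of peaks depends on the joining distance and was 7.95% at 0.5 kb, 38.7% at 2 kb and 65.6% at 5 kb. Only 39 domains had 10 or more peaks. Domains that reached at least 10 kb from end to end numbered 108 and held 17.5% of the bases. Of these, 102 were on autosome arms, 1 was in an autosome centre and 5 were on X. Among all 6031 domains the numbers were 5152, 510 and 369. The domains of at least 10 kb were mostly filled, with a median of 86.7% of their extent inside peaks (quartiles 79.4 and 93.6%), and 3 of them were single peaks.

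Clustered peaks were more frequent on the autosome arms than in the autosome centres or on X. On the autosome arms 64.8% (63.8 to 65.7%) of peaks were in clustered domains, in the autosome centres 40.2% (36.6 to 43.9%) and on X 44.3% (40.1 to 48.6%). Domains of 5 or more peaks held 21.2% of arm peaks, 7.07% of autosome centre peaks and 13.9% of X peaks. Since domains were joined by distance, a denser part has more clustered peaks by construction, and clustering beyond that set by density was not tested.

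**Figure D4:**
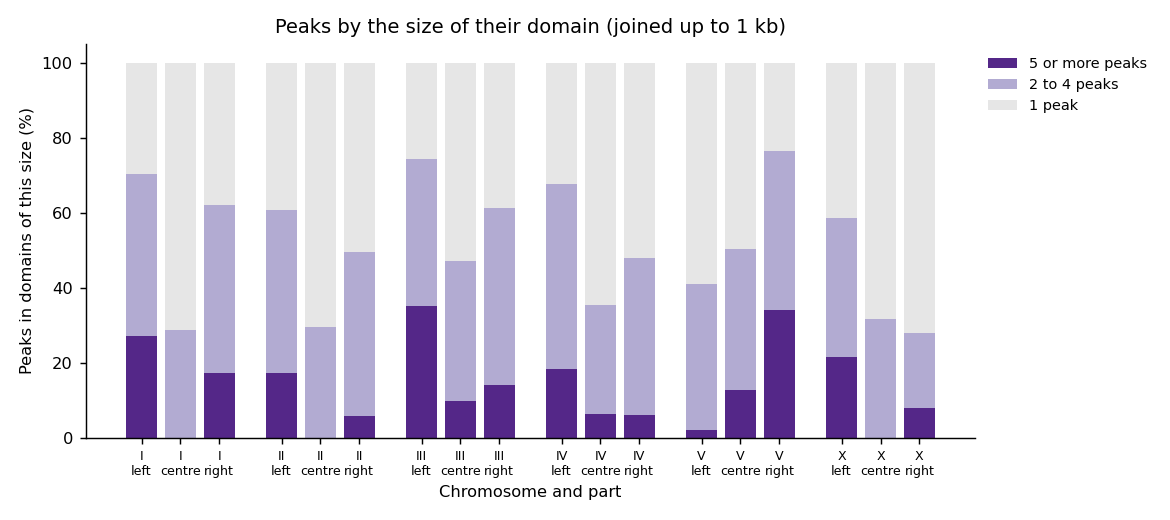
The percent of peaks (y axis, bars from 0 to 100) that lay in domains of 1 peak, of 2 to 4 peaks and of 5 or more peaks, for each part of each chromosome. Large domains took 35.0% of peaks on the left arm of Chromosome III and 34.0% on the right arm of Chromosome V, but 2.06% on the left arm of Chromosome V and 0 in the centres of Chromosomes I and II and of X.

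The right arm of Chromosome V and the left arm of Chromosome III were the most clustered parts. The right arm of Chromosome V had 76.5% of its peaks in clustered domains and 34.0% in domains of 5 or more. It held 76 of the 302 domains of 5 or more peaks and 14 of the 39 domains of 10 or more. The left arm of Chromosome III had 74.4 and 35.0% of peaks in such domains, and 52 domains of 5 or more. The left arm of Chromosome V was at the other end of the autosome arms, with 41.0 and 2.06%, and no domain of 10 kb. The centre of the same chromosome reached 50.3% (43.2 to 57.3%), above its own left arm (36.9 to 45.2%) although it was much less dense. These intervals overlapped, and the centre of Chromosome III, at 47.2%, was also above that left arm. The left arm of X, with 58.7%, was close to the left arm of Chromosome II, with 60.6%, and above the X right arm, with 27.9%. The X right arm was no more clustered than the X centre, with 31.7% (21.6 to 44.0%), although it had 32.2 peaks per Mb against 10.7.

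On the arms and on X, peaks inside domains were also longer than peaks that stood alone. On the autosome arms the median length was 463.5 bp for single peaks, 541.5 bp in domains of 2 to 4 peaks and 588 bp in domains of 5 or more. On X the medians rose in the same order, from 355.5 to 393 and 463 bp. The last X value rests on 73 peaks in 10 domains, and 58 of these peaks were on the left arm. Peaks of any kind were longer there, with a median of 430 bp against 353 bp on the X right arm. The autosome centres did not share this order, with 376.5, 400 and 239.5 bp, and their last value rests on 48 peaks in 8 domains. Of these, 14 peaks in 2 domains belonged to the group of very short peaks in the centre of Chromosome III, described at the end. The median without them was not computed, so the order may rest on that group. From the side of length, 84.7% of the peaks of at least 5 kb and 55.8% of those of 200 to 500 bp had a neighbour within 1 kb. For the shortest peaks, under 200 bp, the share was higher again, at 65.7%.

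Neighbouring peaks resembled each other only weakly in length. Over 10439 neighbours within the same part of a chromosome, Spearman's rho of their lengths was 0.19. The rho of a gap with the mean length of the peaks at its sides was −0.16. Successive gaps were more alike, with a rho of 0.32 over 10421 pairs. These points share the libraries and the peak calling, and each peak enters more than 1 pair, so the values are descriptions of the list.

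The widest domain in the genome was on the left arm of Chromosome III, from 1485397 to 1580993. It was 95.6 kb long and had 27 peaks, the most of any domain. Its peaks covered 93.6% of it and made up 4.69% of all peak bases on Chromosome III. It was 2.76 times as long as the next widest domain. The peaks were 54 to 13582 bp long with a median of 1308 bp, and the 8 peaks of at least 5 kb held 77.9% of its bases. The gaps inside it ran from 27 to 829 bp with a median of 170.5 bp, and 17 of the 26 were under 200 bp. In the pooled list the domain was therefore close to a solid block of peaks, broken by short gaps. Whether any single group had such a block cannot be read from a union. Gaps of 1867 and 2198 bp set the domain off from its neighbours. In the *jhdm-1* list the same stretch had 23 peaks, which covered 29.4% of it.

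**Figure D5:**
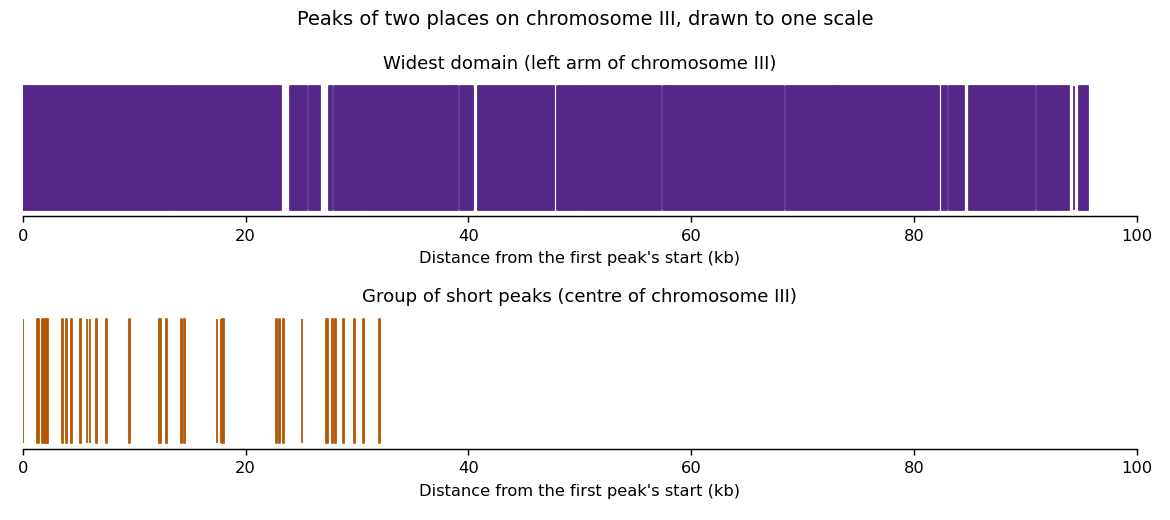
Peaks as blocks along the distance in kb from the start of the first peak, at one scale, for the 27-peak domain on the left arm of Chromosome III (top) and for 32 mostly short peaks in its centre (bottom). The top row is nearly filled over 95.6 kb, and the bottom row is nearly empty over 32.0 kb.

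The same arm had several more domains of this kind. Of the 12 domains of at least 20 kb in the genome, 7 were on the left arm of Chromosome III and 2 on the left arm of Chromosome II. They had 4 to 27 peaks each, and peaks covered 74.3 to 98.1% of their extent. The longest single peak of the list, 18987 bp, was also on the left arm of Chromosome III, from 1172296 to 1191282, in a domain of 5 peaks.

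The domains with the most peaks on the other chromosomes were built differently. On Chromosome V the 20-peak domain from 18444728 to 18458789 was 14062 bp long, with 75.6% of it inside peaks and no peak longer than 1945 bp. The widest domain of Chromosome V, from 19007602 to 19037595, was 29994 bp long with only 8 peaks, which covered 96.8% of it. On Chromosome IV the 13-peak domain from 2476317 to 2492405 reached 16089 bp with 79.6% covered. The widest domain of Chromosome IV, from 1179791 to 1202354, was 22564 bp long and 87.2% covered by 7 peaks. In these cases the domain with the most peaks and the widest domain were separate places, and the widest had fewer and longer peaks.

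Chromosome II had domains of both kinds. The domain from 2455398 to 2483866 was 28469 bp long, was 91.3% covered by 8 peaks and contained the longest peak of the chromosome, 12265 bp from 2461182 to 2473446. The domain from 3162417 to 3166397 had 10 peaks, the most on Chromosome II, but it was 3981 bp long, was 30.7% covered and had no peak over 236 bp. A second domain of 10 peaks, on the right arm from 15204819 to 15219343, was 14525 bp long and 80.6% covered, with a longest peak of 3286 bp. On X the 12-peak domain from 120173 to 132829 was 12657 bp long and 71.4% covered, and the widest domain, from 82036 to 95045, was 13010 bp long and 94.6% covered by 5 peaks. Both X domains lay in the peak-rich first 500 kb of the left end.

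The share of peaks called clustered rose smoothly with the distance allowed for joining, so that no single distance separated domains from the space between them. It was 15.2% at 0.1 kb, 28.8% at 0.2 kb and 46.3% at 0.5 kb. It reached 74.7% at 2 kb, 87.0% at 5 kb and 95.9% at 20 kb. At 50 kb the list fell into 434 groups, of which the largest had 1559 peaks over 4315 kb, the scale of a chromosome arm. At 10 kb the largest group had 259 peaks over 636 kb.

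The *jhdm-1* list had far fewer close neighbours. At a joining gap of 1 kb, 14.0% of its peaks were in clustered domains, no domain had more than 4 peaks, and 92.9% of its 5446 domains were single peaks. At 0.5 kb the share was 1.60%, and at 5 kb it was 68.5%, against 87.0% in the *wdr-5* list. Its arms were 4.54 times as dense as its centres on the autosomes, and 69.2% of the arm peaks of Chromosome IV and 35.2% of those of Chromosome V were on the left. Its arm peaks were not longer than its centre peaks on the autosomes, with a ratio of medians of 0.93 against 1.37 in the *wdr-5* list. The median peak was 833 bp long in the *jhdm-1* list and 495 bp in the *wdr-5* list. The experiments differed in the number of groups and replicates behind each union, and 1 wild-type library in each of the early- and mid-gen groups served both. These differences cannot be told apart from those of the strains, and no test was made between the lists.

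Over windows of 100 kb the list was concentrated as well. Of 1005 windows, 113 held no peak, and the 100 windows with the most covered bases held 47.9% of all peak bases. On the autosome arms 1.45% of windows were empty and the median window held 12 peaks. In the autosome centres 20.1% were empty with a median of 2 peaks, and in the X centre 45.8% with a median of 1. The variance of the number of peaks per window was 11.3 times its mean on the autosome arms, 6.19 times in the autosome centres and 1.93 times in the X centre. On the X arms it was 13.3 times the mean, above the autosome arms, although the median X arm window held 2 peaks. This ratio depends on the mean as well as on the spread, so the parts cannot be ranked for evenness by it.

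The richest windows followed the domains. The window with the most peaks, 81, was on the right arm of Chromosome V from 18400001 to 18500000, with 48.6% of its bases in peaks. The window with the most covered bases, 84.3%, was on the left arm of Chromosome III from 1500001 to 1600000, with 35 peaks. On X the first 100 kb held 51 peaks and was 51.9% covered, the highest on that chromosome by both measures. The richest 10% of windows on each chromosome held 64.3% of the peak bases on X, 50.6% on Chromosome V and 35.3% on Chromosome I.

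Windows resembled their neighbours over distances shorter than an arm. On the autosome arms Spearman's rho between the peak counts of windows 0.1 Mb apart was 0.79 over 543 pairs. It was 0.59 at 0.5 Mb, 0.39 at 1 Mb and 0.01 at 2 Mb, and −0.35 at 5 Mb over 61 pairs. That last value covers fewer arms than the others. Arms of Chromosome III, at 4.59 Mb each, are too short for a pair 5 Mb apart. Arms of Chromosomes IV and V are the longest, at 5.82 and 6.97 Mb. Windows on the same arm were thus alike in the rank of their peak counts only over the shorter distances. The rise and fall of density along the arms was not removed from these values. These windows share libraries and the tilt of density along each arm, and the values carry no test.

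Centres were not uniformly empty either. When peaks were joined up to 5 kb, 4 groups in the centres had 10 or more peaks, and together they held 79 of the 742 centre peaks. There were 3 on Chromosome V, from 8472144 to 8491799 with 14 peaks, from 8835962 to 8853919 with 14 peaks and from 8878063 to 8898206 with 19 peaks. They lay within 0.426 Mb and had median peak lengths of 648, 403.5 and 375 bp. The fifth of the 10 bins of Chromosome V accordingly held 95 peaks, against 43 and 37 in the bins at its sides. The fourth group was on Chromosome III and had a different make-up.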

How the data were processed

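H3K9me2 ChIP-seq and input libraries of whole, mixed-stage animals were aligned by the authors to WS220/ce10 with Bowtie2, and broad peaks were called per replicate with MACS2 (2.1.1 in the submitters' processing notes). The authors deposited each experiment's union of peaks as positions only: chromosome, start and end. No score, count or depth was at hand and 0 columns of per-sample values were left out of use. Starts are printed counted from 1.

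Lengths, gaps, coverage, domains (gaps up to 1 kb joined) and windows (100 kb) were computed with Python 3.11.15, numpy 2.4.6, pandas 2.3.3 and scipy 1.17.1, and checked on simulated lists. A peak's part is that of its midpoint. A chromosome's right end was set at its last peak in the lists of both experiments, since chromosome lengths were not at hand. No test between groups was possible. The named loci are the longest peak, the domain with the most peaks, the widest domain and the widest peak-free stretch of each chromosome other than Chromosome I, whose loci are counted but not named. Other places were chosen after their values were seen. The members and lists were chosen with earlier results of these data known. No gene or sequence was assigned, since the gene table at hand is on WBcel235.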

Additional observations from a re-analysis of the deposited data

How the results depend on the processing

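The peak-level values depend on how peaks are joined or weighted. The number of domains fell to 2787 with a joining gap of 5 kb. The share of peaks in domains of 2 or more was 46.3, 74.7 and 87.0% with joining gaps of 0.5, 2 and 5 kb, and 58.9% with peaks of at least 200 bp. For domains of 5 or more peaks the same settings gave 7.95, 38.7, 65.6 and 16.7%. The median gap was 1680 bp with peaks of at least 200 bp, 2490 bp from centre to centre and 2247 bp after joining gaps up to 200 bp. With gaps up to 1 kb joined beforehand, the autosome arm-to-centre density ratio was 5.05, the autosome-to-X ratio 3.29 over whole chromosomes and 3.49 over arms, the arm-to-centre length ratio 1.67 and the centre-to-arm gap ratio 8.28. By covered bases the density ratios were 10.2, 5.47 and 5.94, and the left share of the arms was 55.3% on the autosomes and 69.5% on X. The gap ratio was 8.09 with 4 parts. The richest 10% of windows held 51.0% at 50 kb, 46.4% at 200 kb and 43.4% on autosomes alone. There were 79 alternatives over 20 results. Of these, 42 stayed within their interval, and 6 counts, which have no interval, within 1.5 times. The other 31 moved further. Only the ratios and the left shares have a direction that could reverse, and none of them did. Leaving out the short peaks in the centre of Chromosome III, an alternative chosen after seeing the data, moved no result beyond its interval. The arm-to-centre ratios of single chromosomes were not among these results. No paired analysis was possible because the list pools the replicates of all groups. Depth and genotype limit every value, since neither can be recovered from a union of positions.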

Other observations

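The group in the centre of Chromosome III, from 7406103 to 7438134, was found after its values had been seen. It had 32 peaks over 32.0 kb, of which 30 were under 200 bp. The lengths ran from 46 to 227 bp with a median of 70.5 bp, and peaks covered 9.01% of the stretch. Its gaps had a median of 530 bp, the flanking gaps were 78577 and 12677 bp, and the *jhdm-1* list had 0 peaks in it. The group made up 22.5% of the 142 peaks in the centre of Chromosome III. The median length in that centre was 321 bp with it and 380 bp without it, on the 110 remaining peaks. Among the 253 groups of 10 or more peaks joined up to 5 kb, the quartiles of the median length were 446 and 786 bp, and 3 groups had a median under 200 bp. The others were on Chromosome II, from 3154952 to 3166397 with 13 peaks and a median of 113 bp, and on Chromosome V, from 20408999 to 20446263 with 21 peaks and a median of 198 bp. The group of Chromosome II contains the 10-peak domain of short peaks described above. Of the 1035 peaks under 200 bp in the list, 46 were in 5 runs of at least 5 such peaks in a row, and the longest run had 20. The library, group or sequence behind these short peaks cannot be read from the list, and was not tested.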
